A study of Mus musculus with 12 samples.

Results

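Hippocampus of VC mice, which carry the transgene VP16-CREB, was compared between 5 weeks and 2 weeks after doxycycline (dox) was withdrawn. The comparison rests on 3 of the 12 arrays of the series, 1 array at 5 weeks and 2 at 2 weeks, chosen by their titles. Dox keeps the transgene silent and its removal turns it on, so the question the comparison addresses is what was still growing after 2 weeks and what had reached a plateau. The other groups used beside it were never-induced hippocampus (2 wild-type arrays and 1 array of VC mice kept on dox), VC hippocampus 1 week after dox withdrawal (2 arrays), a reversed VC sample that expressed the transgene for 3 weeks and then spent 2 weeks back on dox (1 array), and microdissected CA1 of wild-type mice (1 array) and of VC mice 3 weeks after dox withdrawal (2 arrays). CA1 is a subfield of the hippocampus. Each hippocampal sample pooled 6 to 10 mice of 1 genotype and induction time, and the sources used here name neither sex, nor age, nor the driver of the transgene. The hippocampal marker Calb1 was at 10.97 to 11.59 on all 9 whole-hippocampus arrays. Values are log2 intensities of Affymetrix MG-U74Av2 probe sets after each array was scaled to the same trimmed mean, so a difference of 1 is a doubling. The lowest value any probe set can take is a floor of 6.04.

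VP16-CREB joins the DNA-binding transcription factor CREB to the activation domain of a viral protein, so that CREB target genes are switched on without the phosphorylation that CREB normally needs. CREB binds the cAMP response element, and in hippocampal neurons it is known for activity-dependent transcription and long-term synaptic plasticity. Microglia, the resident macrophages of the brain, make little MHC class II at rest and more of it when activated. MHC class II presents peptides from engulfed material, MHC class I presents peptides from the cell's own cytosol, and interferons raise the expression of many genes of both systems.

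The promoters of 4 genes are shown because H2-Aa and Csf3r were among the genes that rose from 2 to 5 weeks, and because Isg15 and Ifit3 are standard interferon-stimulated genes that stood highest at 5 weeks. Each is the 250 bases upstream of the annotated start, written 5′ to 3′ on the gene's strand, from RefSeq on GRCm38.p6. H2-Aa is at chr17:34287824-34288073 (minus strand), Csf3r at chr4:126024409-126024658 (plus strand), Isg15 at chr4:156200819-156201068 (minus strand) and Ifit3 at chr19:34583279-34583528 (plus strand). Capitals mark 3 patterns searched on both strands: the full cAMP response element TGACGTCA, its partial site TGACG, which the full element contains, and an interferon-type element of GAAA, any 2 bases and GAAA.
H2-Aa: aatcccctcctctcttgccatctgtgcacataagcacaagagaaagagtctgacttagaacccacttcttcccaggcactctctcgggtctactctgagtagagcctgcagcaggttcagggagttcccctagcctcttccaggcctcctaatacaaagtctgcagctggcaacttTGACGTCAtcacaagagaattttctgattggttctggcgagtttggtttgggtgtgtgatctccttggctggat
Csf3r: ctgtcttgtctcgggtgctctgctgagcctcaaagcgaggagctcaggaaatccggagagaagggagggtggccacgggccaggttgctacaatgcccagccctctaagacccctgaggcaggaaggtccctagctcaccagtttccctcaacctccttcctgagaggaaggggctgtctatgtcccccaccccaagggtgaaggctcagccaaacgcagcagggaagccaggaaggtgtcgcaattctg
Isg15: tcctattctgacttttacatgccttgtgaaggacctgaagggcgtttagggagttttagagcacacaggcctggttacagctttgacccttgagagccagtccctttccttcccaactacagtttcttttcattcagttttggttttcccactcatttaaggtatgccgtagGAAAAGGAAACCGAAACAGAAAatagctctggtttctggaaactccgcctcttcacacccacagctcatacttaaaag
Ifit3: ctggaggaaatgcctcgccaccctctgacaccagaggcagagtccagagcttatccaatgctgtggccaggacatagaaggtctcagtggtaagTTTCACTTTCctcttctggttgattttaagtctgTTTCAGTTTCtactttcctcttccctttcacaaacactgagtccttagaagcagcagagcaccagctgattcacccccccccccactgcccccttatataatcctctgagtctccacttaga
The H2-Aa window held the full element TGACGTCA, its first base 74 bases before the start. That element was present in 1.55% of all 32851 windows and in 3.05% of the tested genes with a window. The Isg15 window held 3 overlapping matches of the interferon-type element and the Ifit3 window held 2 on the opposite strand, against 2.98% of all windows with any match. The Csf3r window held none of the patterns. A match is only a description of the letters.

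From 2 to 5 weeks 3 probe sets rose (0.0424% of 7069 tested) and 5 fell (0.0707%), 8 in all (0.113%), by limma with Benjamini-Hochberg adjustment at 0.05. The 3 that rose were H2-Aa and Cd74 of the MHC class II system and Csf3r, the receptor for granulocyte colony-stimulating factor. The 5 that fell were Faap20, Amacr, Nr1i3, Map3k11 and the probe set 103049_at, which carries no gene symbol. The spread behind these calls was pooled over the replicated groups, because 1 array has no spread of its own. At an unadjusted p under 0.05 there were 486 probe sets (6.88%), and the median difference over all tested probe sets was -0.0048. The median 95% interval reached 0.635 to either side of the difference, so most steps smaller than that could not be separated from 0. For 4247 probe sets (60.1%) the interval lay wholly between -1 and 1, and such differences are called bounded below. The calls depended on single arrays. Without 2-week array 1 only H2-Aa passed, and without 2-week array 2 there were 9 rises and 1 fall.

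H2-Aa, the alpha chain of an MHC class II molecule, had the largest rise of those that passed. Its level was 6.04 on all 3 never-induced and both 1-week arrays, 6.70 and 6.59 at 2 weeks and 9.90 at 5 weeks. The 2-week arrays lay just above the floor and the 5-week array lay far above all other hippocampal arrays, including the reversed array at 6.17. The difference of 3.26 ± 0.20 (SE) had a 95% interval from 2.82 to 3.71, a 9.59-fold change (adjusted p = 0.000607). The call held in each of the 9 fits that left out 1 array, with adjusted p from 0.000569 to 0.0124. It was lost with a spread that followed the mean level (adjusted p = 0.131) and with values as deposited (adjusted p = 1.00). Only probe sets above their own array's median on at least 2 arrays were tested. H2-Aa was so on 1 hippocampal array, that of 5 weeks, and on 2 CA1 arrays. It was thus tested only through arrays where it was high, and the 9 fits kept the same choice of probe sets. A filter of 6 arrays, or of 2 hippocampal arrays, left H2-Aa untested.

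Cd74 is the invariant chain that guides MHC class II molecules to the compartment where peptide is loaded. It stood at 9.19, 8.88 and 9.16 on the never-induced arrays, 9.45 and 9.39 after 1 week, 9.56 and 9.82 after 2 weeks and 11.93 after 5 weeks. The levels at 2 weeks were close to those at 1 week, and the step came between 2 and 5 weeks. The difference was 2.24 ± 0.26 (SE), 4.74-fold (adjusted p = 0.0193), and the call was lost in 6 of the 9 fits that left out 1 array, up to adjusted p = 0.153 without 2-week array 1.

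Of 10 tested genes of the MHC class II list, 9 were higher at 5 weeks than on both 2-week arrays, against 35.8% of all probe sets. Of the 10, 2 passed the test as higher, against 0.0424% of all probe sets. H2-Aa and H2-Eb1 passed the filter on dim probe sets only through the 5-week and VC CA1 arrays, where they were high. These counts were thus partly set by that filter. The median difference was 0.77, beside a median of 0.60 for the earlier step from never-induced to 2 weeks. H2-Eb1, a beta chain, was 7.11 and 8.36 at 2 weeks and 9.55 at 5 weeks. Its difference of 1.82 (interval 0.82 to 2.81) did not pass, and the 2-week arrays differed widely. H2-Ab1, the beta chain that pairs with H2-Aa, followed another course. It was 6.04, 6.36 and 6.69 on the never-induced arrays, 6.63 and 8.30 after 1 week, 9.48 and 9.83 at 2 weeks and 10.40 at 5 weeks. Most of its climb therefore lay before 2 weeks, and its last step of 0.74 had an interval from -0.57 to 2.06. H2-DMa, which helps peptide exchange, had a bounded difference of 0.08.

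Csf3r stood at or near the floor on every hippocampal array except that of 5 weeks. It was 6.40 and 6.04 at 2 weeks and 8.67 at 5 weeks, while the never-induced arrays read 6.40, 6.04 and 6.04 and the reversed array 6.15. The difference of 2.45 ± 0.27 (SE) was at least 5.47-fold (adjusted p = 0.0193), since 1 of the 2-week arrays was at the floor. The call was lost in 4 of the 9 fits that left out 1 array, up to adjusted p = 0.0795 without 2-week array 1. Csf3r was above its array's median on 1 hippocampal array, that of 5 weeks, and on 1 CA1 array. It was thus tested only through arrays where it was high, and a filter of 2 hippocampal arrays left it untested. Csf3r is best known from neutrophils and their precursors. Of 13 blood markers on the array, the neutrophil genes S100a9, Ngp and Ltf were at the floor at 5 weeks. The neutrophil genes Camp and Elane had differences of -1.01 and -0.56, with intervals below 0. The haemoglobin genes Hba-a1 and Hbb-b2, the other two blood markers tested, were above both 2-week arrays, with differences of 0.61 (-0.49 to 1.72) and 0.59 (-0.16 to 1.34). The summed blood list was 15261 scaled units at 5 weeks, 8956 and 13602 at 2 weeks and 10756 and 19700 at 1 week.

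**Figure D1:**
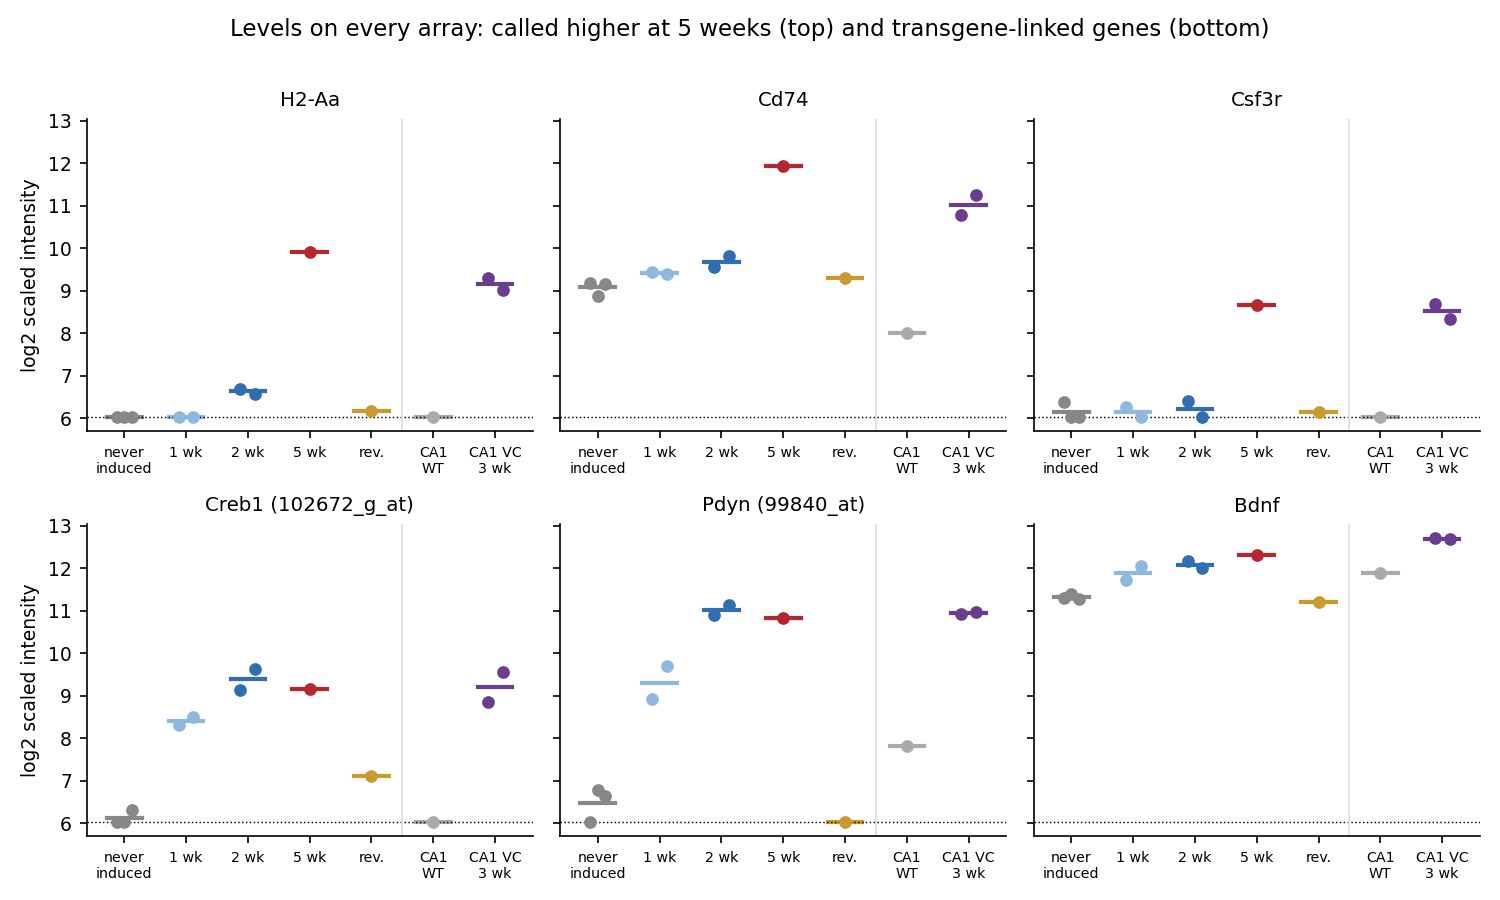
Log2 scaled intensity on each of the 12 arrays by group for H2-Aa, Cd74 and Csf3r (top) and for Creb1, Pdyn and Bdnf (bottom). Points are arrays, bars are group means, the dotted line is the floor of 6.04 and the grey line separates hippocampus from CA1. In the top row the 5-week array stands above all 8 other hippocampal arrays, whereas in the bottom row it stands near the 2-week arrays.

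Microglial genes were higher at 5 weeks as a group. Of 31 tested genes of the microglia and macrophage list, 28 were above both 2-week arrays and 1 was below both. Over all probe sets these shares were 35.8% and 37.4%. The interval lay above 0 for 19 of the 31 genes, against 3.54% of all probe sets, and none passed the test on its own. The median difference was 0.89, beside 0.70 for the step from never-induced to 2 weeks. The summed level of the 42 list genes on the array was 31927 to 35701 scaled units in never-induced hippocampus, 32263 and 32800 after 1 week, 48569 and 55161 after 2 weeks and 90699 after 5 weeks. The 2-week arrays lay above all earlier ones and the 5-week array above both of them, and the reversed array read 44013. In whole tissue, more microglia and more RNA per microglial cell cannot be told apart. The MHC class II genes moved with these markers, and the markers' part in that result was not tested.

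Individual microglial genes took steps of different size. Tyrobp, a signalling adaptor, was 10.91 and 11.10 at 2 weeks and 12.12 at 5 weeks. C1qa, C1qb and C1qc encode the chains of the complement starter C1q, and their differences were 1.08 (interval 0.51 to 1.65), 1.24 (0.68 to 1.80) and 0.89 (0.43 to 1.34). The other C1qb probe set, 162276_i_at, had a difference of -0.19. The integrin gene Itgax, known from activated microglia, was 9.22 and 9.41 at 2 weeks and 10.36 at 5 weeks. Csf1r, the receptor on which microglia depend for survival, was 11.47 on both 2-week arrays and 11.87 at 5 weeks, a bounded difference of 0.40. The fractalkine receptor Cx3cr1 (-0.11) and the lysosomal glycoprotein Cd68 (0.31) were bounded too. Cst7, a cysteine protease inhibitor, was at 6.04 to 6.24 on the never-induced arrays, 8.94 and 10.44 at 2 weeks and 11.49 at 5 weeks. Its difference of 1.81 had an interval from 0.70 to 2.92, and the 2-week arrays themselves lay far apart.

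The lysosomal list showed its larger steps in a few cathepsins. Of 36 tested genes, 23 had bounded differences, near the 60.1% of all probe sets, and 8 had an interval above 0, against 3.54%. The median difference was 0.25, and none passed the test. Ctsz, cathepsin Z, was 9.65 and 9.78 at 2 weeks and 11.11 at 5 weeks, a difference of 1.39 that did not pass (adjusted p = 0.106). Ctsh and Ctsl, 2 further cathepsins, differed by 1.24 and 0.74, and Ctss, cathepsin S, which trims the invariant chain, by 0.89 (interval 0.27 to 1.51). The membrane protein gene Lamp1 (0.08) was bounded, and Ctsd, cathepsin D, at 0.12, had an interval from -0.91 to 1.14. Of 13 tested chemokine genes, 8 were above both 2-week arrays and 3 below both, with a median of 0.42. Over all probe sets these shares were 35.8% and 37.4%. The chemokine count was partly set by the filter on dim probe sets, since some members passed it only through arrays where they were high. The monocyte attractant Ccl2 was at the floor on all 8 other hippocampal arrays and at 7.11 at 5 weeks. Its relative Ccl12 was 7.11 and 7.21 at 2 weeks and 8.84 at 5 weeks, and at the floor in all never-induced and 1-week samples. Ccl2 passed the filter only through VC CA1, and Ccl12 only through the 5-week and VC CA1 arrays.

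Interferon-response genes had the largest median difference of the 31 lists, 0.97 over 18 tested genes, beside 0.43 for the step up to 2 weeks. That rank rested on 2-week array 1, since the median was 1.13 against that array and 0.61 against array 2, where the microglial list had 0.74. Of the 18 genes, 15 were above both 2-week arrays and 9 had an interval above 0, against 35.8% and 3.54% of all probe sets. None of them passed the test. Ifit3, an antiviral effector, was 7.92 to 8.21 on the never-induced arrays, 8.21 and 8.66 at 2 weeks and 10.32 at 5 weeks. Its difference of 1.89 (interval 1.23 to 2.54, adjusted p = 0.0799) compares with 0.39 for the step from never-induced to 2 weeks. Isg15, a ubiquitin-like modifier, was 7.72, 6.17 and 7.41 on the never-induced arrays, 8.85 and 8.61 at 2 weeks and 10.28 at 5 weeks. It was therefore above the never-induced range at 2 weeks and higher again at 5 weeks, with a difference of 1.55 (0.34 to 2.75). The secreted glycoprotein gene Lgals3bp was 9.26 and 9.85 at 2 weeks and 11.43 at 5 weeks (adjusted p = 0.0733).

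The regulators of the response varied. Irf7, the transcription factor that amplifies the type I response, was read by probe set 104669_at at 8.20 and 8.71 at 2 weeks and 9.33 at 5 weeks. A second probe set, 162202_f_at, gave a bounded difference of 0.34. Irf1 differed by -0.01, with an interval from -1.08 to 1.06 that is too wide to tell. Irf8, a factor of myeloid cells, was 8.82 and 9.30 at 2 weeks and 9.98 at 5 weeks, a difference of 0.92 (0.32 to 1.51). Among 16 tested interferon and cytokine ligands and receptors 2 had an interval above 0, against 3.54% of all probe sets. They were the receptor chains Ifnar1 (0.87) and Ifngr1 (0.82). Against never-induced hippocampus Ifnar1 differed by -0.54 at 2 weeks and 0.33 at 5 weeks, and Ifngr1 by 0.04 and 0.86. Ifit1, another antiviral effector, was below the filter on dim probe sets. The interferon-type element was found in 6 of the 17 interferon-list genes with a promoter window (35.3%). It was found in 7 of 89 genes with a difference above 1 (7.87%), in 0 of 47 with a difference below -1, and in 3.05% of all tested genes with a window.

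MHC class I genes were higher at 5 weeks in part, and none passed the test. Of 15 tested genes of the class I and antigen-processing list, 9 were above both 2-week arrays and 3 below both. Over all probe sets these shares were 35.8% and 37.4%. An interval above 0 was found for 6 and an interval below 0 for 1, against 3.54% and 3.34% of all probe sets. The median was 0.61, beside 0.54 up to 2 weeks. B2m, the light chain of every class I molecule, was 11.63 and 12.16 at 2 weeks and 13.46 at 5 weeks, a difference of 1.57 (0.65 to 2.48). Psmb9 and Psmb8 encode subunits of the immunoproteasome, which cuts peptides for class I, and differed by 1.83 (0.91 to 2.76) and 1.11 (0.39 to 1.82). Psmb9 passed the filter on dim probe sets only through the 5-week array and a VC CA1 array, where it was high. The list counts include Psmb9 and were partly set by that filter. Tap1, a subunit of the transporter that carries peptides to class I, had a difference of 0.50 (-0.16 to 1.15). The class I heavy chain gene H2-D1 had differences of 1.43, 0.92 and 0.90 on its 3 probe sets, all of them with intervals above 0. The probe set at 1.43, 97541_f_at, passed the filter only through the 5-week and VC CA1 arrays. The 30 tested genes of the constitutive proteasome had a median of 0.02, and 24 of them were bounded. H2-K1 probe set 93120_f_at was 12.45 and 12.74 at 2 weeks and 13.35 at 5 weeks. Another, 97700_at, differed by -0.07, and probe sets with the ending _f_at can read several related H2 genes.

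Lymphocyte markers were mostly dim. Of 26 on the array, 9 were at the floor at 5 weeks and 8 on both 2-week arrays. Those at the floor at 5 weeks included the T-cell receptor genes Cd3d and Cd3e and the T-cell genes Cd8a and Cd8b1. Of 5 tested, Cd4 (-1.12) and the B-cell gene Ms4a1 (-1.07) had intervals below 0, while the immunoglobulin gene Ighm was above both 2-week arrays, with a bounded difference of 0.33. The summed list was 24210 scaled units at 5 weeks and 28377 and 33870 at 2 weeks.

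Astrocyte genes were mixed. Of 26 tested, 15 were above both 2-week arrays and 7 below both, against 35.8% and 37.4% of all probe sets. An interval above 0 was found for 8 genes of the list and an interval below 0 for 2, against 3.54% and 3.34% of all probe sets. The median difference of the 26 genes was 0.34. Gfap, the filament protein of reactive astrocytes, read by 94144_g_at, was 11.79, 12.10 and 12.21 on the never-induced arrays, 13.75 and 13.56 at 2 weeks and 14.35 at 5 weeks. On it most of the climb lay before 2 weeks, and the later step of 0.69 had an interval from 0.03 to 1.35. The other Gfap probe set, 94143_at, differed by 1.06 up to 2 weeks and by a further 0.95 (0.35 to 1.54) to 5 weeks. Abca1, which exports cholesterol, was 9.11 and 9.40 at 2 weeks and 10.71 at 5 weeks, after a difference of 0.10 up to 2 weeks (adjusted p = 0.0683, not passing). Another filament gene, Vim, went the other way, with 8.29 and 8.57 at 2 weeks and 6.93 at 5 weeks (interval -2.82 to -0.17). The lipid carrier gene Apoe had a bounded difference of -0.03. Chil1, a chitinase-like protein made by activated glia, was 7.19 and 7.39 at 2 weeks and 9.56 at 5 weeks (adjusted p = 0.0833). It was tested only through arrays where it was high, since it passed the filter on dim probe sets only at 5 weeks and in VC CA1. The same held for Osmr, a gene of the astrocyte list that enters the counts above.

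Immediate early genes, which neurons switch on within minutes of activity and of which several are CREB targets, were higher at 5 weeks without passing the test. Of 25 tested, 22 were above both 2-week arrays and 7 had an interval above 0, against 35.8% and 3.54% of all probe sets. Both counts include Ccn1, which passed the filter on dim probe sets only through VC CA1. The median difference was 0.65, beside 0.14 for the step up to 2 weeks. Fos was 9.91, 10.01 and 10.38 on the never-induced arrays, 10.52 and 10.84 after 1 week, 11.26 and 11.49 after 2 weeks and 12.46 after 5 weeks. The groups did not overlap at any of these times, and the last step was 1.08 (interval 0.13 to 2.03, adjusted p = 0.678). The zinc-finger gene Egr2 was flat at 8.26 to 8.81 up to 2 weeks and stood at 9.96 at 5 weeks. Inhba (-0.21) and Nptx2 (-0.34) were exceptions. Wild-type CA1, never induced, had Fos at 12.57.

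Creb1, Pdyn and Bdnf, named for their place in the CREB pathway, each had a probe set that was bounded from 2 to 5 weeks, whereas Fos, also a CREB target, was not bounded. Creb1 probe set 102672_g_at was at 6.04, 6.04 and 6.33 on the never-induced arrays, 8.31 and 8.50 after 1 week, 9.14 and 9.63 after 2 weeks and 9.15 after 5 weeks. The 5-week value lay between the 2-week values, and the difference of -0.24 was bounded (interval -0.99 to 0.52). The sources used here do not say which Creb1 probe sets read the transgene. Creb1 probe set 102671_at, at 9.13 and 9.15 at 2 weeks and 8.47 at 5 weeks, had a wider interval, from -2.00 to 0.66.

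Pdyn, the opioid peptide precursor prodynorphin and a CREB target, was 6.04 to 6.79 on the never-induced arrays by probe set 99840_at, 8.93 and 9.70 after 1 week, 10.89 and 11.13 after 2 weeks and 10.84 after 5 weeks. Its difference of -0.17 had an interval from -1.04 to 0.70, which just passed the bound. The other Pdyn probe set, 161987_at, was bounded at -0.26 (-0.71 to 0.19). Bdnf, a neurotrophin and CREB target, was 11.26 to 11.40 on the never-induced arrays, 12.17 and 11.99 at 2 weeks and 12.30 at 5 weeks, a bounded difference of 0.22 (-0.26 to 0.71). For the bounded probe sets a plateau is shown only to within a doubling.

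Of the 11 probe sets that were called higher at 2 weeks than in never-induced hippocampus (0.156% of those tested), 3 were bounded from 2 to 5 weeks, 5 had an interval above 0 and 3 had neither. Over all probe sets 60.1% were bounded and 3.54% had an interval above 0. The 11 were chosen for high 2-week values, and the same 2-week arrays enter the later difference. The bounded ones were Creb1 102672_g_at, Pdyn 161987_at and the unnamed 98472_at. Those with an interval above 0 were Cst7, the leukocyte surface gene Cd52 (0.87, interval 0.33 to 1.40), Irf7, H2-K1 93120_f_at and Gfap. Against never-induced hippocampus, 61 probe sets were called higher at 5 weeks (0.863%) and 9 lower (0.127%). That comparison shares the 5-week array with the one described here.

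**Figure D2:**
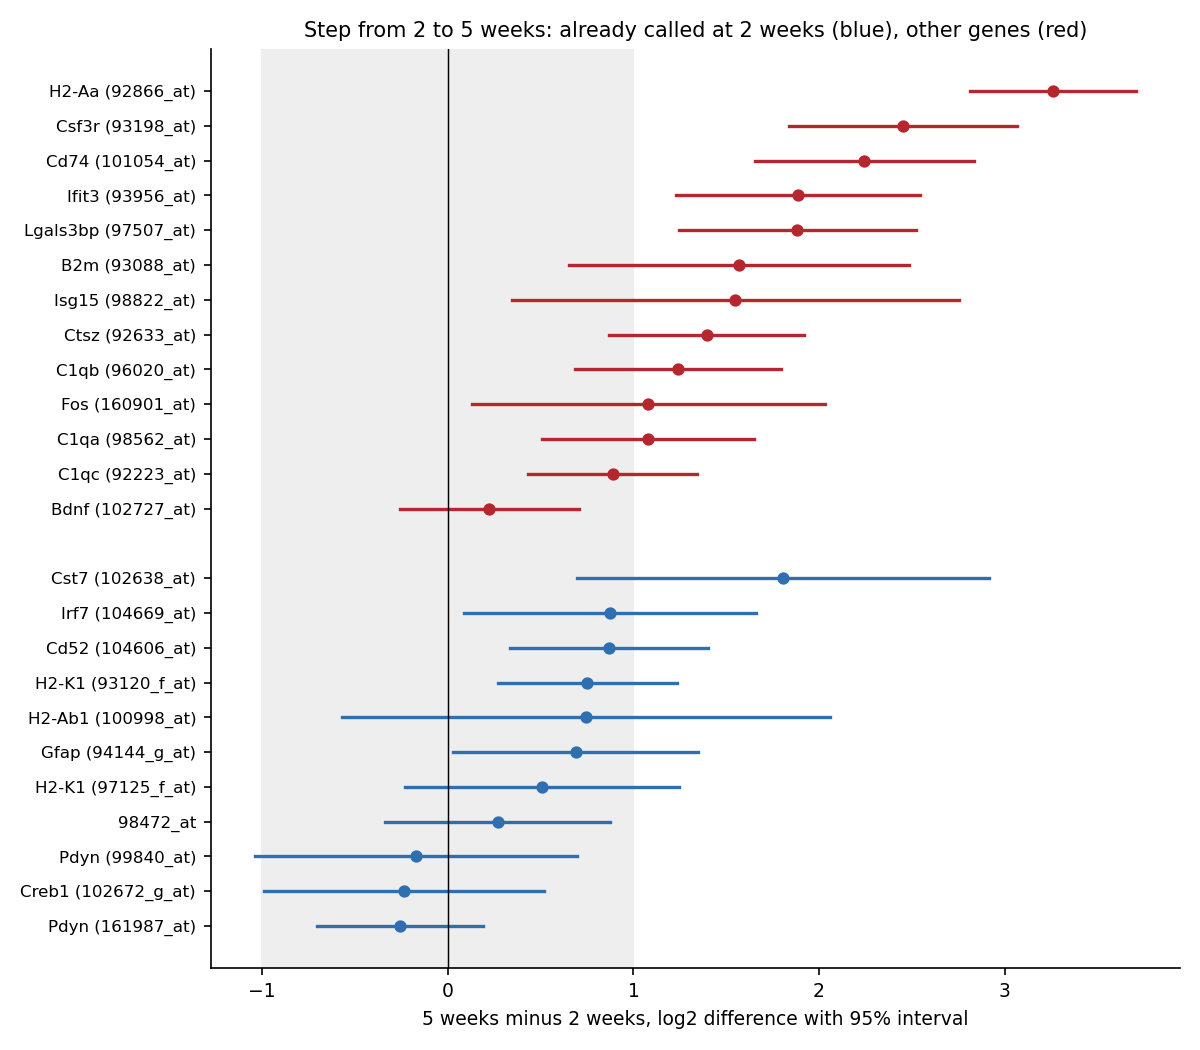
Log2 difference of 5 minus 2 weeks with its 95% interval for the 11 probe sets already called higher at 2 weeks (blue) and for 13 other named probe sets (red). The shaded band from -1 to 1 marks less than a doubling either way. Creb1 102672_g_at, Pdyn 161987_at, 98472_at and Bdnf lie wholly within it. H2-Aa, Csf3r and Cd74 lie wholly above it, as do Ifit3 and Lgals3bp, which were not called.

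The share of bounded genes differed between lists. It was 60.1% over all probe sets, and 3440 of 5436 genes were bounded when each was read by its brightest probe set. A bounded difference also needs a narrow interval, so the share depends on the spread as well as on the step. All 9 tested genes of the oligodendrocyte and myelin list were bounded, among them Mbp (-0.10) and Mog (-0.03), which encode myelin proteins. Of 49 tested genes of oxidative phosphorylation 43 were bounded, with a median of -0.07, and of 31 heat shock and endoplasmic reticulum stress genes 22 were bounded, with a median of -0.01. Among neurotrophins and growth factors 10 of 16 were bounded, near the share of all probe sets. Interneuron peptides Sst (0.09) and Npy (0.20) were bounded too. Npy, at 12.56 and 12.82 at 2 weeks and 12.89 at 5 weeks, had been 11.61 to 11.93 on the never-induced arrays.

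Genes listed as markers of dentate granule cells, the main neurons of the dentate gyrus, were mostly lower at 5 weeks. Of 9 tested, 7 were below both 2-week arrays, against 37.4% of all probe sets, and 3 had an interval below 0, against 3.34%. The median difference was -0.52, and none passed the test. Lct was 9.96 and 9.85 at 2 weeks and 8.47 at 5 weeks, while the other 6 hippocampal arrays ran from 9.29 to 10.04. Its difference of -1.43 (interval -1.94 to -0.93) had adjusted p = 0.0810. Dsp, a junction protein gene, was 10.62 and 10.30 at 2 weeks and 9.55 at 5 weeks, and the transcription factor gene Neurod2 differed by -0.70 (-1.16 to -0.24). Calb1, a calcium buffer of granule cells, had a bounded difference of -0.22. Dcx (0.03, bounded) and Sox11 (0.64, interval -0.05 to 1.33) were not lower. The summed level of the 12 list genes on the array was 10658 to 11492 scaled units in never-induced hippocampus, 10021 and 10435 at 2 weeks and 7415 at 5 weeks.

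Other neuronal lists had smaller medians. They were -0.31 for 11 postsynaptic genes, -0.25 for 9 glutamate receptor genes, -0.23 for 9 CA1 pyramidal markers, 0.06 for 26 synaptic vesicle genes and 0.08 for 8 genes of the GABA system. Some genes had intervals too wide to read, such as Camk2a, a kinase of the synapse, at 1.78 (-0.37 to 3.94). Choroid plexus markers differed between the 2-week arrays themselves. Ttr, the transthyretin gene by which this tissue is recognised, was 8.64 and 12.15 at 2 weeks and 12.58 at 5 weeks, and 12.91 and 13.10 at 1 week. The part of dissected choroid plexus in other results was not tested.

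**Figure D3:**
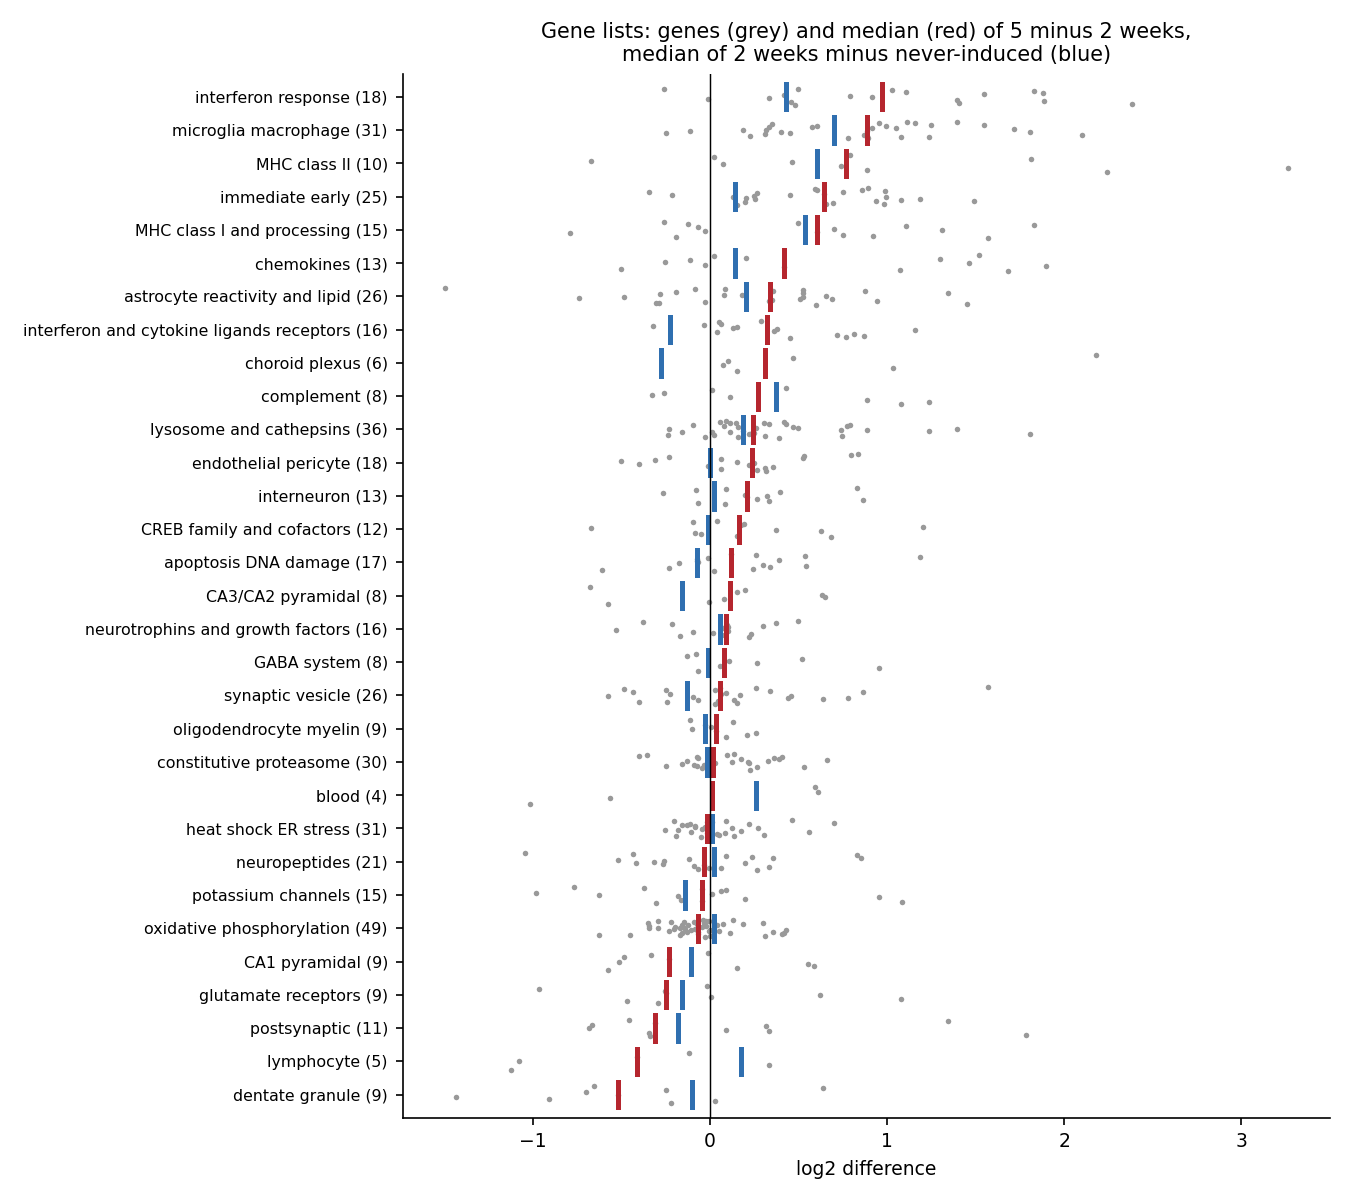
Log2 differences by gene list, with the number of tested genes in brackets. Grey points are genes and red bars their median for 5 minus 2 weeks, and blue bars are the medians for 2 weeks minus never-induced. The interferon response (0.97), microglia (0.89) and MHC class II (0.77) lists have the highest red medians, and the dentate granule list (-0.52) the lowest.

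The 5 probe sets that fell were called for a low value on the single 5-week array. On each, the 5-week array lay below all 8 other hippocampal arrays, which follows in part from that choice. Amacr, a racemase of fatty acid oxidation, was 8.53 and 8.84 at 2 weeks, 8.22 to 8.84 on the other 6 hippocampal arrays and at the floor at 5 weeks, at least 6.28-fold lower (difference -2.65, adjusted p = 0.0193). Faap20, a Fanconi anaemia DNA repair factor, was 9.09 and 8.90 at 2 weeks and at the floor at 5 weeks, at least 7.75-fold lower (adjusted p = 0.0218). The nuclear receptor gene Nr1i3, which senses foreign compounds in liver, was 9.37 and 9.46 at 2 weeks and 6.76 at 5 weeks, 6.27-fold lower (adjusted p = 0.0193). At 2 weeks Amacr, Faap20 and Nr1i3 differed from never-induced hippocampus by 0.03, 0.35 and 0.17, and none passed.

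Map3k11, a kinase upstream of JNK, was 8.89 and 9.06 at 2 weeks and 7.04 at 5 weeks, 3.84-fold lower (adjusted p = 0.0193). The unnamed probe set 103049_at fell from 10.43 and 10.11 to 6.91, 10.3-fold (adjusted p = 0.00784). Without 2-week array 1 no fall passed (136 at an unadjusted p under 0.05), and the adjusted p was 0.0795 for Amacr and 103049_at, 0.144 for Nr1i3 and Map3k11 and 0.179 for Faap20. The next smallest p-values in this direction did not pass. Adgrg3 was 8.52 and 8.08 at 2 weeks and at the floor at 5 weeks (adjusted p = 0.0681). Ccnt1, a cyclin of the transcription elongation complex P-TEFb, was 9.62 and 9.61 against 7.94 (adjusted p = 0.0833), and Gm10229 was 8.79 and 8.98 against 7.61 (adjusted p = 0.174). The 5-week array had 21.3% of its values at the floor, the highest share of the 9 hippocampal arrays, where the others had 18.0% to 20.8%. Its correlations with the other 8, from 0.965 to 0.975, lay inside the range of all 36 hippocampal pairs, 0.963 to 0.984.

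**Figure D4:**
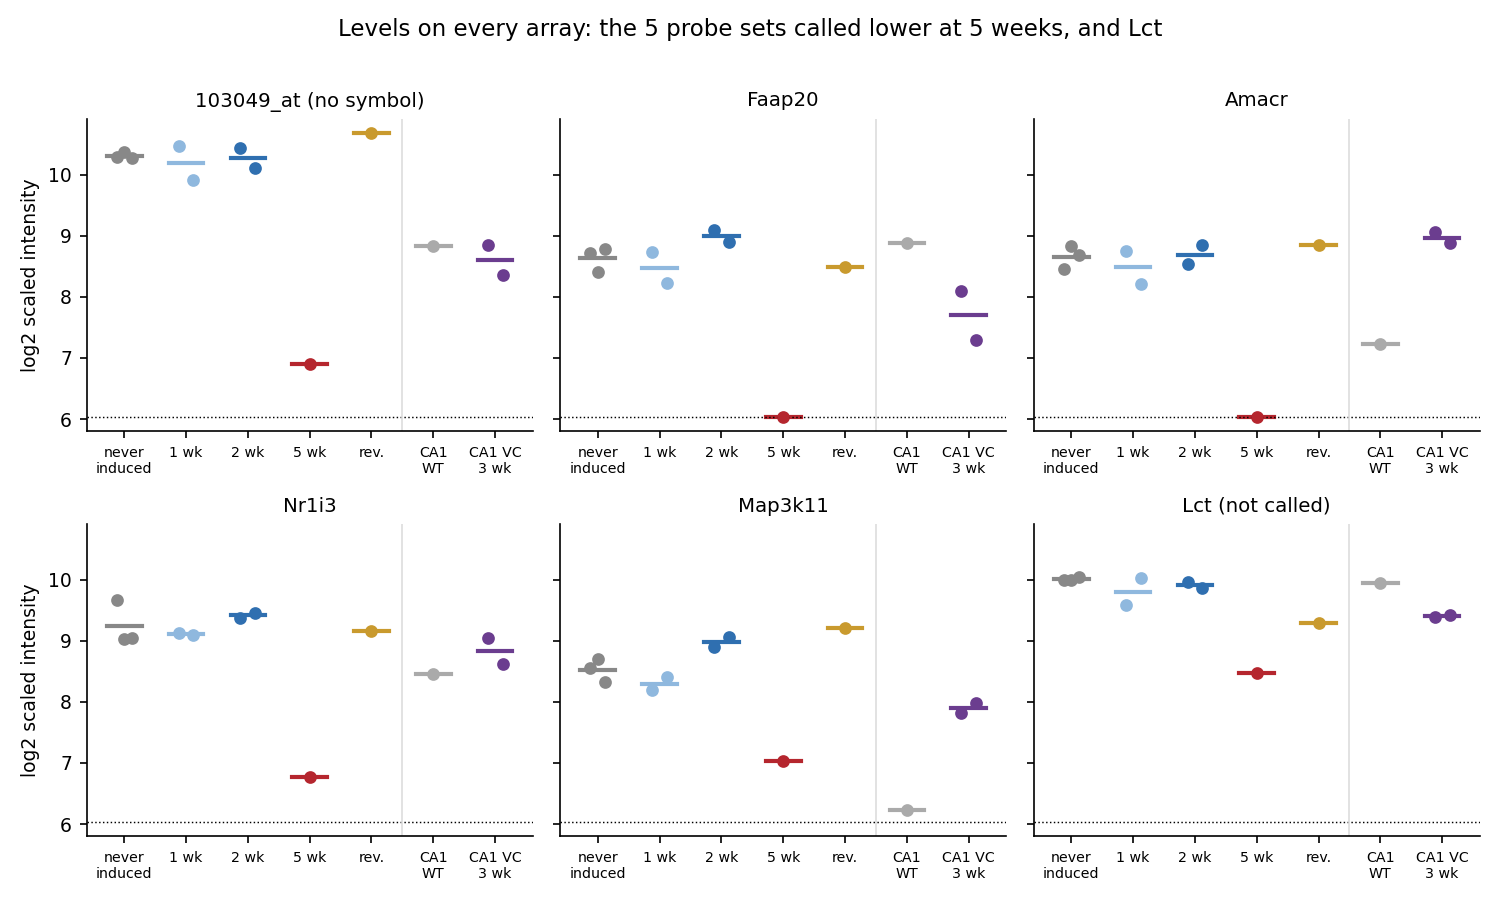
Log2 scaled intensity on each of the 12 arrays by group for the 5 probe sets called lower at 5 weeks and for Lct, which was not called. Points are arrays, bars are group means and the dotted line is the floor of 6.04. In all panels the red 5-week array lies below the 8 other hippocampal arrays, and for Faap20 and Amacr it lies at the floor.

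The CA1 arrays took no part in the difference of 5 and 2 weeks, although they share its pooled spread and the filter on dim probe sets. Between VC and wild-type CA1, 80 probe sets were called higher (1.13%) and 9 lower (0.127%). All 3 probe sets that rose were among the higher ones. For H2-Aa and Csf3r this was partly set by the filter. Each was above its array's median on 1 hippocampal array, that of 5 weeks. Each could be tested only because VC CA1 was bright as well (2 and 1 CA1 arrays). The CA1 calls of H2-Aa and Csf3r are therefore no independent reading. Cd74 was above the median on all 9 hippocampal arrays. H2-Aa was 6.04 in the wild-type sample against 9.29 and 9.03 in the VC samples, Csf3r 6.04 against 8.68 and 8.35, and Cd74 8.01 against 10.78 and 11.24. The limma fit gave adjusted p = 0.00029 for H2-Aa, 0.00558 for Csf3r and 0.00198 for Cd74. At 3 weeks of induction VC CA1 thus held levels for H2-Aa and Csf3r near those of whole hippocampus at 5 weeks. The summed microglial list was 41500 scaled units in the wild-type sample and 103899 and 107312 in the VC samples.

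The 5 probe sets that fell were mixed in CA1. Amacr was 7.23 in the wild-type sample against 9.06 and 8.87 in the VC samples, and Map3k11 was 6.23 against 7.82 and 7.99. Both were higher in VC CA1, with adjusted p = 0.0272 and 0.0132. Faap20 was lower in VC CA1, at 8.89 against 8.10 and 7.30, with an interval from -2.01 to -0.37 that did not pass (adjusted p = 0.226). Nr1i3, at 8.46 against 9.05 and 8.62, and 103049_at, at 8.83 against 8.84 and 8.35, did not pass either.

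The larger steps were read on the CA1 arrays in the same way. Of 135 probe sets (1.91%) with a difference above 1, 72 had both VC CA1 arrays above the wild-type CA1 array, which is 53.3% against 29.4% of all tested, and 22 had both below (16.3% against 31.6%). Of 77 (1.09%) with a difference below -1, 25 had both above (32.5%) and 26 both below (33.8%), near the shares of all tested. Among probe sets that would pass the filter on hippocampal arrays alone, 45 of 95 with a difference above 1 had both VC CA1 arrays higher (47.4% against 29.3% of all 6761) and 16 both lower (16.8% against 31.4%). Of the 135, 84 lay above all 8 other hippocampal arrays, and of the 77, 64 lay below all of them. These counts follow in part from choosing probe sets by a large difference. No matching shares of all tested probe sets are given here, so the counts are only a description. Interferon genes were uneven in CA1. Lgals3bp was 9.99 in the wild-type sample against 11.21 and 11.24 in the VC samples, whereas Ifit3 was 8.76 against 8.90 and 9.17.

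**Figure D5:**
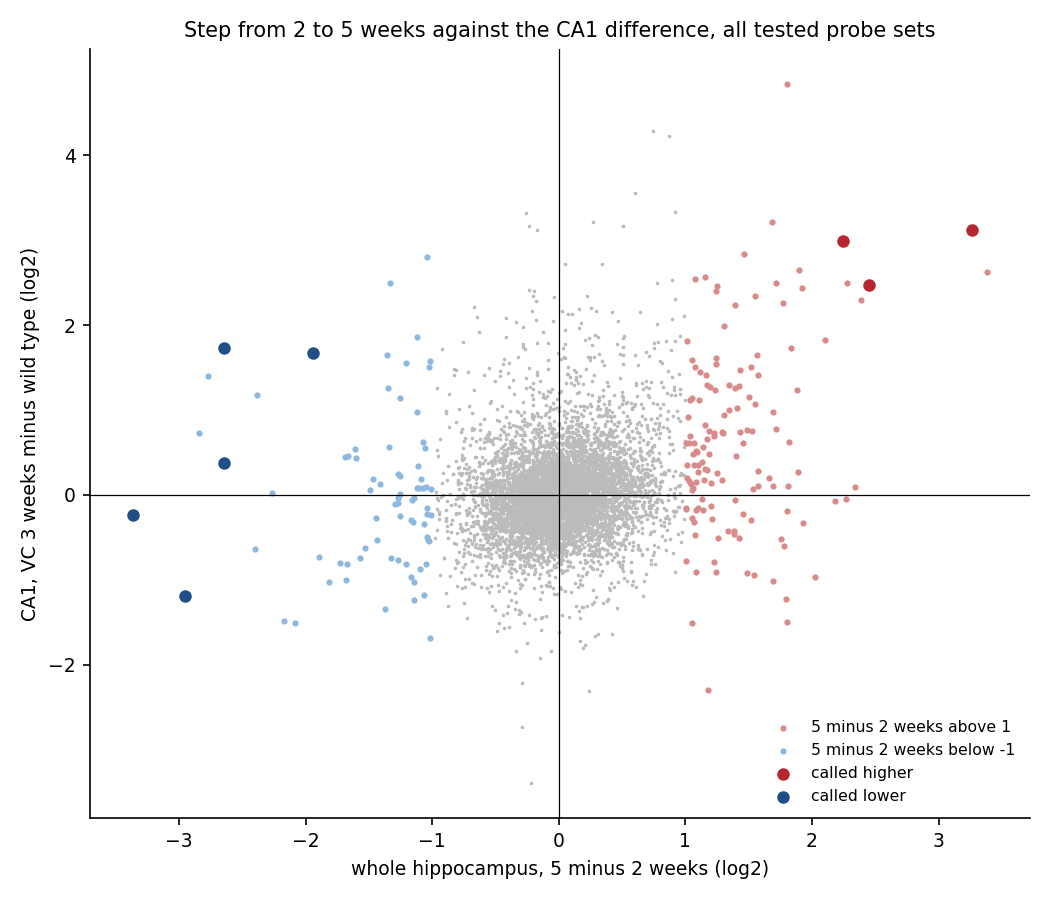
Log2 difference of 5 minus 2 weeks in whole hippocampus (horizontal) against VC minus wild-type CA1 (vertical), 1 point per tested probe set. Larger points are the 3 probe sets called higher and the 5 called lower, and coloured small points lie beyond 1 or -1. The 3 called higher lie in the upper right, between 2.48 and 3.12 on the vertical axis, and the 5 called lower lie on both sides of 0.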

How the data were processed

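RNA of 12 pooled samples was hybridised to Affymetrix MG-U74Av2 arrays. The deposited values are intensity on a linear scale, made with GCOS per the submitters' processing notes. Its version and algorithm were not given in the sources used here. A trimmed mean of the deposited values was 500 on 4 arrays and 3002 on 8, among them all arrays of 2 and 5 weeks. Each array was rescaled to a mean of 1000 trimmed by 2% at each end, floored at the 20th percentile (65.7) and converted to log2, since the deposited values are linear. Probe sets above their own array's median on at least 2 arrays were tested, 7069 of 12422. Gene symbols came from the platform annotation (10833 probe sets with 1 symbol, 396 with several, 1193 with none).

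A limma 3.58.1 fit in R 4.3.3 (lmFit, eBayes) used 7 levels over 12 arrays, with two-sided tests, Benjamini-Hochberg adjustment and 5 residual degrees of freedom, and assumed that the lone 5-week array varies like the replicated ones. It was tested on simulated data. Nothing says which mice make up replicate pools, so p-values measure the spread between pooled samples. Precision is limited by how few arrays there are. Folds against a group with an array at the floor are written "at least".

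Named genes were all calls with a symbol, the smallest p-values up to 8 in each direction, 33 listed genes and the probe sets called at 2 weeks; 1 listed gene is not reported here. Other list genes were named as examples after their values were seen. Members and the 31 lists (954 genes, 718 on the array, 491 tested) were chosen with earlier results of these data known. Each list gene was represented by its brightest probe set. Alternatives were other scalings, floors, filters, sets of arrays, eBayes settings and leaving out each replicated array. The reversed sample is titled transgenic but described as wild type.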

Additional observations from a re-analysis of the deposited data

How the results depend on the processing

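The 3 rises, 5 falls and 4247 bounded probe sets from 2 to 5 weeks were recomputed under 22 alternatives, of which a filter of 2 hippocampal arrays was chosen after seeing the data. Rises numbered 6 with quantile normalization, 5 with the floor at the 30th percentile, 20 with no filter, 1 with a filter of 6 arrays, 1 (Cd74) with a filter of 2 hippocampal arrays, which left H2-Aa and Csf3r untested, 5 with hippocampal arrays only, and 1 each with only the 5-week and 2-week arrays and with a trended spread. Falls numbered 3 with the floor at the 30th percentile, 8 with no filter, 3 with a filter of 6 arrays, and 2 each with only the 5-week and 2-week arrays and with a trended spread. Values as deposited gave 0 rises, 0 falls and 0 bounded probe sets by limma (5 higher and 8 lower at an unadjusted p under 0.05), because levels then mix arrays of 2 scales. Leaving out 1 array gave 1 to 9 rises, 0 to 6 falls and 2877 to 4972 bounded probe sets. Differences near 0 changed sign: Apoe was 0.0528 with quantile normalization, and leaving out 1 array moved it from -0.2255 to 0.1697, Inhba from -0.6737 to 0.2492, H2-K1 97700_at from -0.293 to 0.1447, C1qb 162276_i_at from -0.5354 to 0.1456 and Creb1 102672_g_at from -0.4831 to 0.0094. H2-Aa ranged from 2.88 to 3.32, Cd74 from 2.11 to 2.38 and Csf3r from 1.65 to 2.78. The cause of these shifts was not tested. No paired analysis was possible because the 5-week group has 1 array, so the groups share fewer than 2 replicate numbers.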
